A study of Mus musculus with 9 samples.

Results

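The Fraser complex and nephronectin genes are 6 genes whose products meet at the epithelial basement membrane: Fras1, Frem1 and Frem2, which make up the FRAS/FREM complex, the sorting partner Grip1, the ligand gene Npnt and its receptor gene Itga8. They were chosen by symbol, by matching the Ensembl mouse identifiers of the count table to a GRCm38 annotation. All 6 were found among 35275 genes, and all 6 had enough counts to be tested, as had 15825 genes in all. The samples were anterior segments of newborn mouse eyes, at postnatal day 0, holding cornea, iris, ciliary body and drainage structures without the lens. Of 9 bulk RNA-seq libraries, 3 came from wildtype (Col4a1+/+) mice and 6 from mice heterozygous for a missense allele of the type IV collagen gene Col4a1 (Col4a1+/G1344D), called mutant here. Each library pooled 4 eyes from 2 mice, and the tests below see only how these pools vary. The labels name no strain, sex or litter.

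Fras1, Frem1 and Frem2 are very large extracellular proteins built around repeats also found in the proteoglycan NG2. Fras1 and Frem2 span the cell membrane and shed their outer part, Frem1 is secreted, and the proteins stabilise each other in the basement membrane beneath surface epithelia. Loss of the complex loosens epithelium from the underlying tissue and causes Fraser syndrome, whose signs include skin that covers the eye. Grip1 is a scaffold of PDZ domains that carries Fras1 to the basal side of epithelial cells. Nephronectin, the product of Npnt, is a basement membrane protein that binds the integrin alpha8 beta1 through an Arg-Gly-Asp motif, and Itga8 encodes the alpha8 chain, found on mesenchymal and smooth muscle cells. In the embryo this ligand and receptor pair is known for its part in kidney outgrowth.

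The ends of the coding sequences of Fras1 and Frem2 are shown because the tail of a membrane protein is where a PDZ scaffold such as Grip1 can bind. The end of Frem1, the secreted member, is shown beside them for comparison. The last 42 coding bases, stop codon included, come from GENCODE transcripts of GRCm38, and capitals mark the last 4 codons before the stop. The stretch of Fras1 lies at chr5:96781730-96781771 on the plus strand, that of Frem2 at chr3:53516532-53516573 on the minus strand and that of Frem1 at chr4:82900399-82900440 on the minus strand, each within 1 exon.
Fras1: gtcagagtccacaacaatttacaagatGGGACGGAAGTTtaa
Frem2: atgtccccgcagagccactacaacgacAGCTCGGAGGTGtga
Frem1: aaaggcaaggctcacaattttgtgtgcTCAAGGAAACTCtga
In the 12 capital bases, the ends of Fras1 and Frem2 shared 7 bases, those of Fras1 and Frem1 5 bases and those of Frem2 and Frem1 3 bases. These counts compare bases, not amino acids, and binding to Grip1 was not tested.

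For the ligand, the stretch that carries the Arg-Gly-Asp codons of Npnt is shown, since integrin alpha8 beta1 binds the motif they encode. It spans 36 coding bases at chr3:132904659-132904694 of GRCm38 on the minus strand, within 1 exon, and capitals mark the 3 codons of the motif.
Npnt: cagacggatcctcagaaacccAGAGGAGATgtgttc
A search in frame found the motif 1 time in the Npnt-201 transcript, and in all 6 annotated coding transcripts of the gene.

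Among the 6 genes, 4 were higher in the mutant, 0 were lower and 2 were not called. Frem2 rose most, by 1.68-fold, followed by Frem1 with 1.599-fold, Itga8 with 1.46-fold and Fras1 with 1.33-fold. The scaffold gene Grip1 and the ligand gene Npnt were not called, at 1.08-fold and 1.10-fold. The test was edgeR's quasi-likelihood test on the whole table, with a Benjamini-Hochberg adjusted p under 0.05 as threshold. By the same test 19.2% of all genes tested were called, 9.7% higher and 9.47% lower in the mutant, and the median log2 fold change over all genes was -0.00193. Every mutant library stood above every wildtype library for 10.8% of all genes and below for 11.2%. In bulk tissue, more or fewer cells of a type and more or less RNA per cell cannot be told apart. Values are given as CPM, counts relative to library size after scaling between libraries.

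**Figure D1:**
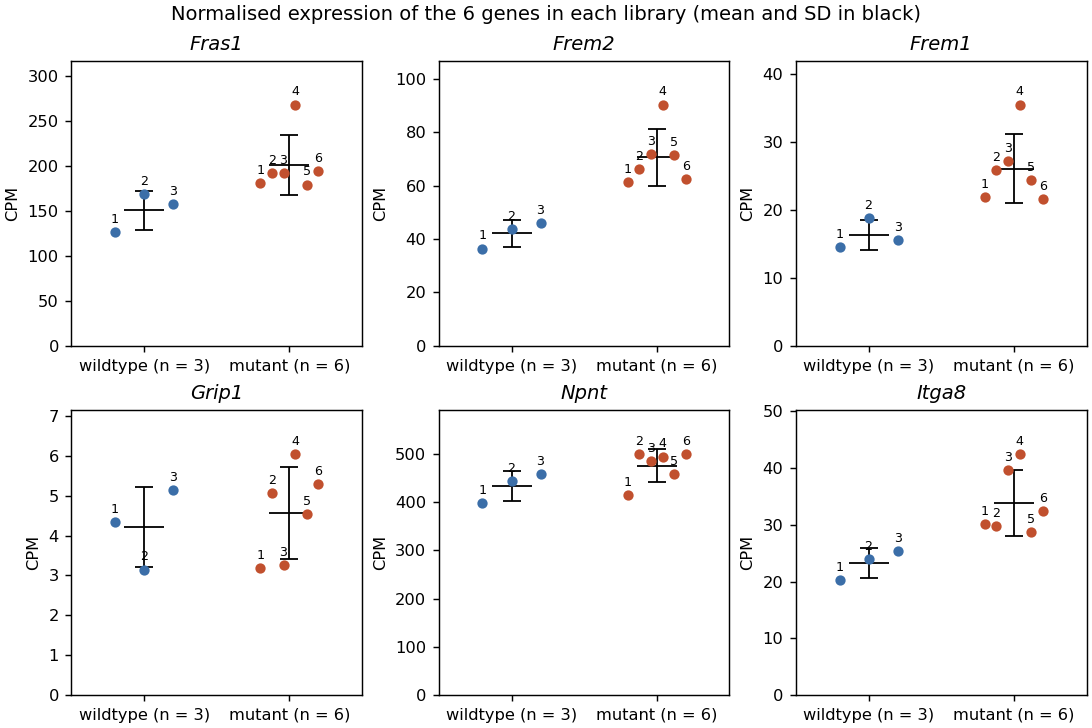
Normalised expression (CPM, vertical axis from 0) of the 6 genes in 3 wildtype and 6 mutant libraries, with replicate numbers beside the points and mean and SD in black. All 6 mutant points lie above all 3 wildtype points for Fras1, Frem2, Frem1 and Itga8, and the groups overlap for Grip1 and Npnt.

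Frem2 (ENSMUSG00000037016, chromosome 3, 53513938 to 53657355 of GRCm38, minus strand) encodes a membrane-spanning member of the complex. Its CPM in wildtype 1 to 3 was 36.4, 43.9 and 46.1. In the mutants it was lowest at 61.2, had a median of 68.9 and was highest at 90.3, so the groups did not overlap and mutant 4 stood highest. The wildtype mean was 42.1 ± 5.04 CPM (SD, n = 3) and the mutant mean 70.6 ± 10.6 CPM (SD, n = 6), for a log2 fold change of 0.74 (SE 0.122, edgeR adjusted p = 0.00167). Over 21 alternative settings and left-out libraries the log2 fold change ran from 0.47 to 0.82 and Frem2 was called in all 21 (highest edgeR adjusted p = 0.0240).

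Frem1 (ENSMUSG00000059049, chromosome 4, 82897920 to 83052339, minus strand) encodes the secreted member. Its CPM was 14.5, 18.8 and 15.5 in wildtype 1 to 3. The mutants ran from 21.5 over a median of 25.1 to 35.5, again without overlap and with mutant 4 at the top. The mean rose from 16.3 ± 2.25 to 26.05 ± 5.10 CPM, a log2 fold change of 0.68 (SE 0.152, edgeR adjusted p = 0.00759). The call was lost without wildtype 1 (log2 fold change 0.60, edgeR adjusted p = 0.0696) and was held in the other 20 of 21 alternatives, with adjusted p-values down to 0.000341.

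Fras1 (ENSMUSG00000034687, chromosome 5, 96373955 to 96784728, plus strand) encodes the other membrane-spanning member, which Grip1 carries to the basal side of epithelial cells. Its CPM was 126, 168 and 157 in wildtype 1 to 3 and ran in the mutants from 179 over a median of 192 to 268. The groups did not overlap, but the gap between them was narrow, from 168 in wildtype 2 to 179 in mutant 5, and mutant 4 stood far above the others. The mean rose from 151 ± 21.7 to 201.1 ± 33.5 CPM, a log2 fold change of 0.42 (SE 0.123, edgeR adjusted p = 0.0271). Fras1 was called in 14 of 21 alternatives, with adjusted p-values between 0.00616 and 0.297. Its log2 fold change fell to 0.14 once the trend on gene length described below was removed (edgeR adjusted p = 0.199). An antisense gene model, Gm42604, shares 159 exon bases with Fras1, and its counts were not analysed here.

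Grip1 (ENSMUSG00000034813, chromosome 10, 119453830 to 120087261, plus strand) was the least abundant of the 6, with 84 to 170 counts per library. Its CPM was 4.35, 3.15 and 5.14 in wildtype 1 to 3, and in the mutants it ran from 3.19 over a median of 4.80 to 6.06. The groups overlapped, and 2 of 6 mutants stood above the highest wildtype library. The log2 fold change was 0.11, with a 95% interval from -0.39 to 0.61 (SE 0.235, edgeR adjusted p = 0.776). A change of the size seen in Fras1 lies inside this interval, and 5 of 21 alternatives turned the sign, among them removal of the length trend at -0.05 (edgeR adjusted p from 0.551 to 0.965 over all 21).

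The ligand gene Npnt (ENSMUSG00000040998, chromosome 3, 132881745 to 132950291, minus strand) was by far the most abundant, with 10824 to 17109 counts per library. Its CPM was 399, 443 and 458 in wildtype 1 to 3. In the mutants it ran from 415 over a median of 490.3 to 501, and 5 of 6 mutants stood above the highest wildtype library, mutant 5 by a small margin (457.9 against 457.8). The log2 fold change was 0.13, with a 95% interval from -0.04 to 0.31 (SE 0.0838, edgeR adjusted p = 0.276). Here the interval was narrower than for Grip1. Npnt was not called in any of 21 alternatives, with log2 fold changes from 0.07 to 0.20 (0.0695 to 0.197) and adjusted p-values from 0.130 to 0.665.

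Itga8 (ENSMUSG00000026768, chromosome 2, 12106632 to 12301922, minus strand), the gene of the receptor chain, had 20.3, 24.03 and 25.4 CPM in wildtype 1 to 3. The mutants ran from 28.7 over a median of 31.3 to 42.6 CPM. All mutants stood above all wildtype libraries, with mutants 3 and 4 apart from the other four at 39.7 and 42.6. The mean rose from 23.2 ± 2.66 to 33.9 ± 5.81 CPM, a log2 fold change of 0.54 (SE 0.135, edgeR adjusted p = 0.0121). The call was lost without wildtype 1 (edgeR adjusted p = 0.104, the highest of 21 alternatives, the lowest being 0.00172), without wildtype 1 and mutant 4 together (0.0858) and with a ribosomal RNA covariate (0.0610). An antisense gene, E030013I19Rik, shares 372 exon bases with Itga8. It held 233 counts over all libraries, and Itga8 held 1898 in the wildtype and 6349 in the mutant. The log2 fold change of E030013I19Rik was 0.67 (edgeR adjusted p = 0.321), and its part in the Itga8 result was not tested.

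Levels of different genes can be compared only per length, so counts were divided by exon length and scaled within each library (TPM). In wildtype, Npnt stood highest at 276 ± 41.1 TPM, above 96.8% of the genes tested. Fras1 followed at 27.3 ± 6.01 TPM, then Frem2 at 10.2 ± 1.99, Itga8 at 10.1 ± 1.91, Frem1 at 3.74 ± 0.772 and Grip1 at 1.66 ± 0.411 (SD, n = 3). Frem2 and Itga8 could not be told apart within their spread, while the ranges of the other neighbours in this order did not overlap. The same order held in the mutant, with Npnt at 306 ± 32.2 TPM, Fras1 at 36.6 ± 6.71, Frem2 at 17.2 ± 2.94, Itga8 at 14.8 ± 2.67, Frem1 at 6.03 ± 1.32 and Grip1 at 1.83 ± 0.499 (SD, n = 6). Per longest transcript, Frem2 stood below Itga8, at 8.32 and 9.75 TPM in wildtype and 14.4 and 14.7 TPM in the mutant. Frem3, the third gene of the Frem family, was close to the floor at 0.273 ± 0.202 and 0.177 ± 0.138 TPM. Within the complex, then, Fras1 RNA was the most abundant per length and Frem1 RNA the least.

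Whether partners changed by unequal amounts was asked with the ratio of 2 genes inside each library, which does not depend on scaling between libraries. The log2 ratio of Frem2 to Fras1 CPM lay between -1.94 and -1.77 in wildtype and between -1.63 and -1.33 in the mutant, without overlap. It was 0.33 higher in the mutant (exact two-sided permutation p = 0.0119, the smallest that 84 splits can give, and 0.0595 after Benjamini-Hochberg adjustment over 5 ratios). Frem1 relative to Fras1 was 0.25 higher, from -3.20 ± 0.117 to -2.95 ± 0.127, with overlapping groups (exact permutation p = 0.0476, adjusted 0.0794). Frem1 relative to Frem2 stood at -1.37 ± 0.178 and -1.44 ± 0.0895, a difference of -0.08 (exact permutation p = 0.417, also 0.417 adjusted). Frem2 thus stood out from Fras1 in every mutant library, while the ratio of Frem1 to Frem2 overlapped between the groups.

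For the ligand and its receptor, the log2 ratio of Npnt to Itga8 CPM lay between 4.17 and 4.29 in wildtype and between 3.54 and 4.07 in the mutant. All 6 mutants stood below all 3 wildtype libraries, by 0.40 on average (exact permutation p = 0.0238, adjusted 0.0595). Grip1 relative to Fras1 overlapped widely, at -5.15 ± 0.480 and -5.47 ± 0.294 (exact permutation p = 0.274, adjusted 0.342). No ratio passed the adjusted threshold with all libraries, and 1 ratio at the smallest possible p could not pass it alone. After removal of the length trend 3 passed: Frem2 to Fras1 at 0.36, Frem1 to Fras1 at 0.28 and Npnt to Itga8 at -0.31 (exact permutation, adjusted p = 0.0298, 0.0298 and 0.0397).

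**Figure D2:**
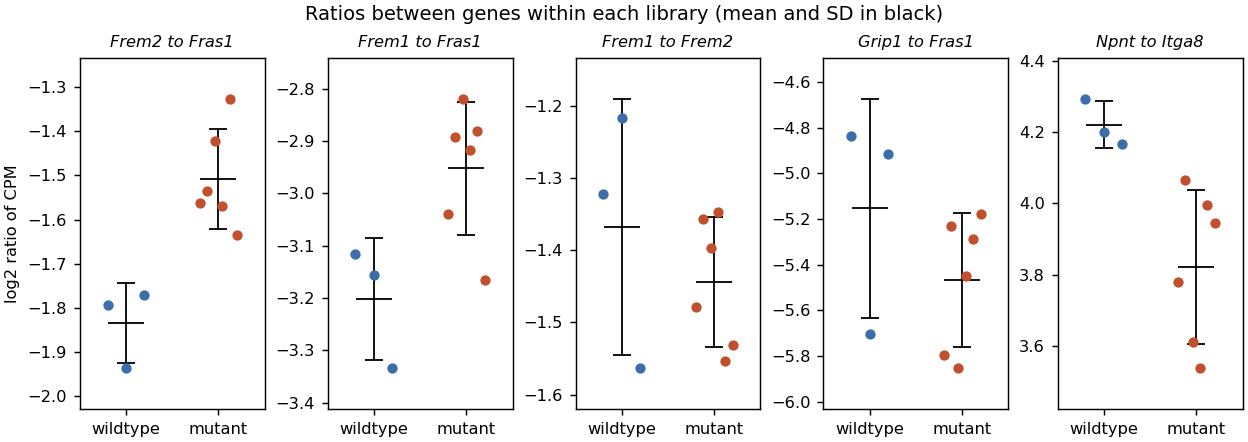
Log2 ratio of CPM between 2 genes within each library (vertical axes, each with its own range) in 3 wildtype and 6 mutant libraries, mean and SD in black. Frem2 to Fras1 is higher and Npnt to Itga8 lower in all 6 mutant libraries than in any wildtype library, and the other 3 ratios overlap.

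Libraries differed in how long genes were represented, and this moved with genotype. The measure used was the median log2 deviation of 1443 tested genes with at least 10000 exon bases minus that of 5011 genes under 3000 bases. It was -0.50, -0.15 and -0.30 in wildtype 1 to 3 and 0.02, 0.01, 0.10, 0.52, 0.02 and 0.20 in mutants 1 to 6, so wildtype 1 and mutant 4 were at the ends and the groups did not overlap. The trend and the genotype therefore cannot be told apart. The share of counts from Gm42418, a gene that overlaps ribosomal RNA and serves as the ribosomal RNA covariate, was 4.54% in wildtype 1, at most 0.0708% in the other wildtype libraries, 0.0673% in mutant 2 and 4.11% to 6.91% in the other mutants. The complex genes are long, with 17709 exon bases in Fras1, 13978 in Frem1 and 13255 in Frem2, against 8064 in Grip1, 7368 in Itga8 and 5026 in Npnt. Among genes of at least 10000 exon bases 29.4% were higher in the mutant, with a median log2 fold change of 0.25, and among genes of 5000 to under 10000 bases 15.2%, with a median of 0.12. Fras1 at 0.42, Frem1 at 0.68 and Frem2 at 0.74 all lay above the median of the genes of at least 10000 exon bases.

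Mutant 4 was the highest mutant library for 5 of the 6 genes, all but Npnt, and wildtype 1 the lowest wildtype library for 5, all but Grip1. The wildtype library highest on the length measure was wildtype 2 at -0.15, and the mutants lowest on it were 1, 2 and 5 at 0.01 to 0.02, so they still differed on it. Frem2 stood at 43.9 CPM in that 1 wildtype library and at 61.2, 66.3 and 71.5 CPM in the other three. Fras1 stood at 168 CPM against 181, 192 and 179, and Itga8 at 24.03 against 30.1, 29.8 and 28.7. With the smooth trend on exon length removed from every library, 3 of the 6 genes were called: Frem2 at 0.50 (edgeR adjusted p = 0.00195), Frem1 at 0.43 (0.0232) and Itga8 at 0.41 (0.0268). Without wildtype 1, Frem2 alone was called, at 0.65 (edgeR adjusted p = 0.0240), while the calls over all genes went from 3034 to 538.

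**Figure D3:**
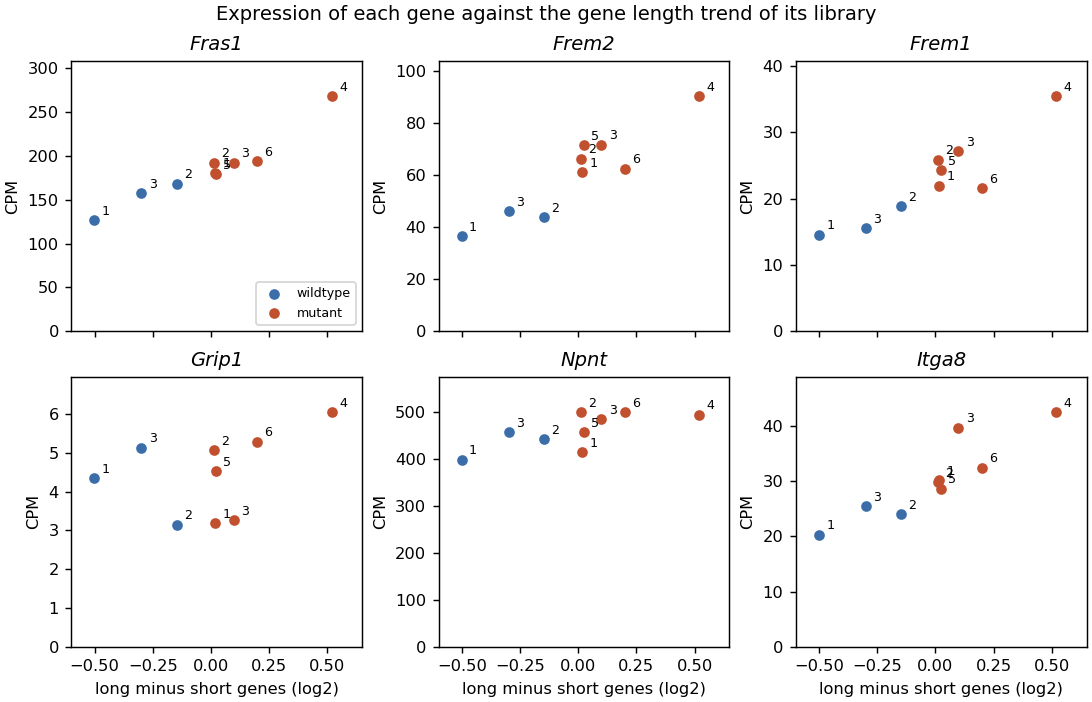
CPM of each gene (vertical axis from 0) against the gene length measure of its library (horizontal axis, median log2 deviation of genes with at least 10000 exon bases minus that of genes under 3000), replicate numbers beside the points. From wildtype 1 to mutant 4, the ends of the measure, Fras1 runs from 126 to 268 CPM and Frem2 from 36.4 to 90.3 CPM. From wildtype 2 to mutants 1, 2 and 5, Fras1 goes from 168 CPM to between 179 and 192 CPM. Over the same libraries Frem2 goes from 43.9 CPM to between 61.2 and 71.5 CPM.

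**Figure D4:**
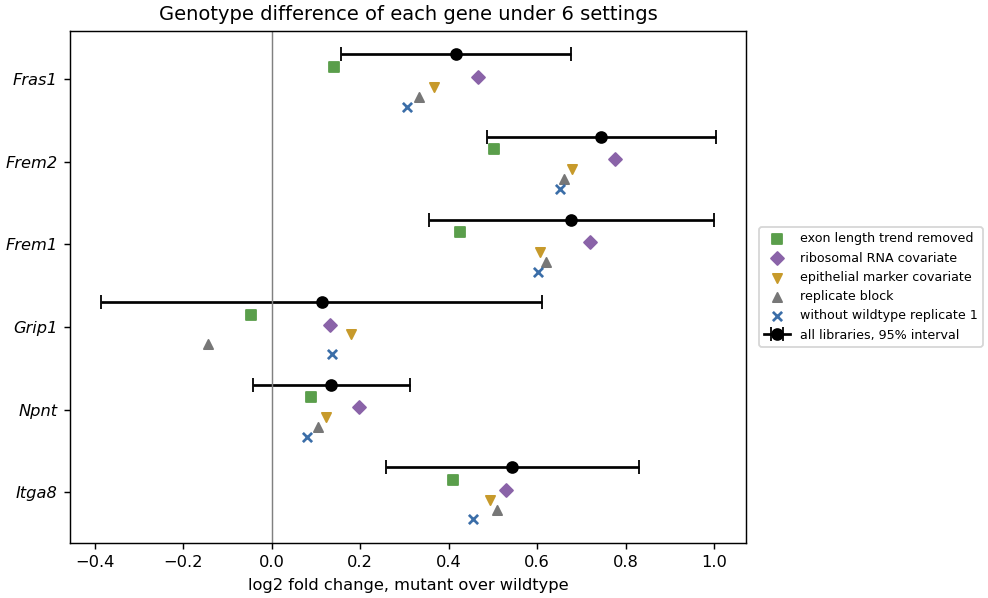
Log2 fold change of mutant over wildtype (horizontal axis) for each gene with all libraries (black, with its 95% interval) and under 5 alternatives (coloured, without interval). Frem2 stays at 0.50 or above in all 6 settings shown, Fras1 drops to 0.14 with the length trend removed, and Grip1 lies on both sides of 0.

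The complex acts beneath epithelia, so its genes and Grip1 were also set against 15 markers of surface and corneal epithelium, although Frem1 and Grip1 are also made by other cells. The summed CPM of these markers overlapped between the groups, from 8978 to 10111 in wildtype and from 8749 to 10049 in the mutant. Of the 15 markers 2 were higher, Esrp1 by 1.30-fold and Trp63 by 1.26-fold, and Krt8 was 1.34-fold lower (edgeR adjusted p = 0.00774, 0.0329 and 0.00526). The higher calls went to 0 without wildtype 1 (Esrp1 0.0720 and Trp63 0.225), to 4 without wildtype 2, to 3 without mutant 2 and to 1 without wildtype 3, mutant 3 or mutant 5, and Trp63 lost its call with the length trend removed (0.186) and with a replicate block (0.0838). The keratin genes Krt15 and Krt5 made up most of the sum, so it mainly follows these 2 genes. Krt15 stood at 3870 ± 267 and 3608 ± 333 CPM and the basal keratin gene Krt5 at 2987 ± 225 and 2941 ± 256 CPM. Relative to the summed markers, Frem2 was higher in all 6 mutants, by 0.78 on the log2 scale (from -7.85 ± 0.0843 to -7.08 ± 0.241), Frem1 by 0.70 and Fras1 by 0.45, without overlap. With the length trend removed these differences were 0.40, 0.32 and 0.04. Grip1 relative to the markers overlapped between the groups, with a difference of 0.14 that turned to -0.14 with the length trend removed.

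Itga8 is carried by smooth muscle and mesenchymal cells. The summed CPM of 10 smooth muscle and pericyte markers was lower in all mutants, from 1292 to 1497 against 1617 to 1732 in wildtype. Most of this sum came from the contractile genes Acta2, Myh11 and Tagln, at 696, 332 and 278 CPM in wildtype. The sum therefore mainly follows contractile genes, not pericyte genes. Itga8 was higher in the mutant. The markers split, with 3 higher and 5 lower: the contractile genes Actg2 and Cnn1 were 1.85-fold and 1.66-fold lower, and the pericyte genes Abcc9 and Cspg4 2.36-fold and 1.95-fold higher (edgeR adjusted p = 3.06e-05, 0.000897, 0.000105 and 0.00312). The pericyte gene Pdgfrb was also higher, by 1.46-fold from 119 ± 18.9 to 173 ± 16.6 CPM (edgeR adjusted p = 0.00337). The pericyte genes Rgs5 and Kcnj8 were not called (edgeR adjusted p = 0.384 and 0.292). Rgs5 stood at 78.0 ± 5.11 and 69.3 ± 13.4 CPM and Kcnj8 at 22.7 ± 1.19 and 25.2 ± 1.65 CPM. The 5 lower calls went to 2 without wildtype 2 or wildtype 3, and to 3 without wildtype 1, without mutant 3 or with the length trend removed. Summed markers of neural crest mesenchyme and stroma overlapped, from 24009 to 30339 and from 18817 to 29959 CPM, with 2 of 11 higher and 4 lower. Without wildtype 1, 0 were called in either direction by edgeR, and 0 were higher without wildtype 3 or with the length trend removed. The part of these markers in the Itga8 result was not tested.

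Markers of lens, retina, skeletal muscle and eyelid skin had low summed levels, and those of pigment and ciliary epithelium high ones. Of 11 lens markers 3 were at 0 in all libraries (Crybb2, Cryga and Lim2), 5 were tested and Bfsp2 made up most of their sum, which was 48.8 to 55.9 CPM in wildtype and 36.9 to 43.6 in the mutant. Bfsp2 was 1.31-fold lower, with all 6 mutants below all wildtype libraries (edgeR adjusted p = 0.00958, 0.0879 without wildtype 1 and 0.176 with the length trend removed). Of 10 retina markers 3 were tested and Rcvrn was at 0, with a sum of 40.3 to 42.0 and 48.1 to 69.0 CPM, nearly all of it Rbp3. Rbp3 was 1.45-fold higher, with all 6 mutants above all wildtype libraries (edgeR adjusted p = 0.00977, 0.0630 without wildtype 1 and 0.0504 without wildtype 3). Of the pigment and ciliary epithelium markers 9 of 10 were tested and 0 called by edgeR or by DESeq2 (1 at an unadjusted p under 0.05 in edgeR), with Rpe65 at 0. Their sum was 15606 to 16298 CPM in wildtype and 13875 to 15539.8 CPM in the mutant. Markers of skeletal muscle summed to at most 8.04 CPM and those of eyelid skin and hair follicle to at most 20.4 CPM in any library. Their part in the results was not tested.

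The relatives and partners of the complex were read from a list of 8 genes, of which 7 were tested, 3 were higher and 0 lower, with a median log2 fold change of 0.57. Cspg4, which encodes NG2 and carries the same kind of repeat, rose 1.95-fold from 7.28 ± 1.57 to 14.2 ± 2.31 CPM. Hmcn1, the gene of the large matrix protein hemicentin-1, rose 1.75-fold from 23.99 ± 4.20 to 42.0 ± 12.2 CPM (edgeR adjusted p = 0.0120, and 0.0972 without wildtype 1, the highest over the libraries left out in turn). Col7a1, the collagen of anchoring fibrils, rose 1.36-fold from 85.7 ± 15.2 to 117 ± 16.7 CPM, but lost its call without wildtype 1 or 3 and with the length trend removed. Vwa2, whose product AMACO binds Fras1, stood at 2.19 ± 0.243 and 3.62 ± 1.12 CPM and was not called (edgeR adjusted p = 0.0845). Egfl6, a relative of nephronectin, stood at 77.6 ± 7.20 and 72.5 ± 6.37 CPM (edgeR adjusted p = 0.494).

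Ligands that the alpha8 chain can bind, and its partner chain, form a list of 6 genes, of which 4 were higher and 0 lower, with a median of 0.70. The partner chain Itgb1 stood at 638 ± 28.1 and 664 ± 31.6 CPM and was not called (edgeR adjusted p = 0.652), so the alpha chain rose beside a partner that was not called. The fibronectin gene Fn1 rose 1.90-fold, the osteopontin gene Spp1 1.64-fold from 370.1 ± 10.4 to 606 ± 99.5 CPM, and the tenascin-C gene Tnc 1.62-fold from 26.7 ± 2.85 to 43.3 ± 7.50 CPM (edgeR adjusted p = 0.00153, 0.00186 and 0.00388). The vitronectin gene Vtn was near the floor, with 9 counts summed over wildtype and 167 summed over mutants, at 0 to 0.221 CPM and 0.478 to 1.63 CPM. These 4 genes kept their calls without any single library and with the length trend removed. Nephronectin and Egfl6 were thus the ligands of alpha8 beta1 in these lists that were not called.

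Of 7 other integrin chains that recognise Arg-Gly-Asp, 3 were higher and 0 lower. Itgav rose 1.42-fold from 130 ± 12.3 to 184 ± 22.5 CPM (edgeR adjusted p = 0.00428), Itgb8 1.57-fold and Itga5 1.26-fold. Itgb8 and Itga5 lost their calls without wildtype 1 or 3 or mutant 6, and Itga5 also without mutant 3. Itgb8 also lost its call with the length trend removed (edgeR adjusted p = 0.102) and with a replicate block (0.221). Of 6 genes of GDNF-RET signalling, the pathway tied to nephronectin and Itga8 in the kidney, 0 were called by edgeR or by DESeq2, 1 had an unadjusted p under 0.05 in edgeR, and 0 were free of overlap between the groups. Gdnf stood at 5.92 ± 1.56 and 4.53 ± 0.549 CPM, Ret at 7.12 ± 1.62 and 8.04 ± 0.986.

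Hemidesmosomes fasten epithelium to the same basement membrane. Of 11 genes for them and for epithelial anchorage 4 were higher and 1 lower, with a median of 0.28. The laminin gene Lama3 rose 1.64-fold from 19.2 ± 3.71 to 31.5 ± 6.11 CPM. The integrin gene Itga6 rose 1.27-fold and the tetraspanin gene Cd151 fell 1.31-fold from 156 ± 18.6 to 119 ± 8.72 CPM (edgeR adjusted p = 0.0207 and 0.00715). Lama3, Itga6 and Cd151 lost their calls without wildtype 1, and with the length trend removed 1 was higher, Lama3, and 1 lower, Cd151. Col7a1, given above, is also among the higher genes of this list. Of 10 core genes of the epithelial basement membrane 8 were higher and 0 lower, with a median of 0.53, and 8 were higher with the length trend removed. Frem2 and Frem1 thus lay above this median, Itga8 close to it, and Fras1 below it.

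**Figure D5:**
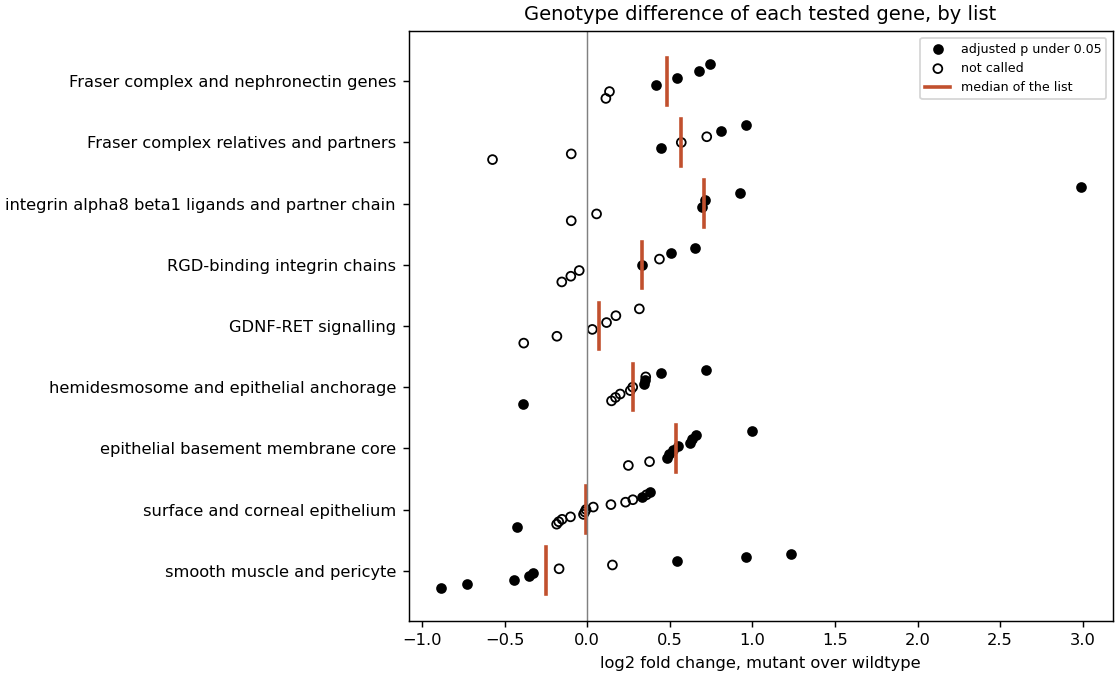
Log2 fold change of mutant over wildtype (horizontal axis) of each tested gene in 9 lists, filled where called by edgeR at an adjusted p under 0.05, with the median of each list as a bar. The Fraser complex and nephronectin genes have a median of 0.48, the basement membrane core 0.53 and the epithelial markers -0.01.

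Across all 46 genes of these lists 45 were tested, 21 were higher and 1 was lower. By length, 9 of 12 with at least 10000 exon bases were higher, beside 29.4% of all genes of that class, and 9 of 21 with 5000 to under 10000 bases, beside 15.2%. With the length trend removed 17 listed genes were higher, and higher calls over all genes went from 1535 to 938. Without wildtype 1 they were 13 and 303. The lists were chosen with results of these data known, so this count is a description. Every mutant library was above every wildtype library for 4 of the 6 Fraser complex and nephronectin genes. Among all genes that share was 10.8%, as given above, and it was 27.6% among genes of at least 10000 exon bases, the class of the 3 complex genes.

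Promoter sequences were matched by symbol in a RefSeq table of GRCm38.p6 for 5 of the 6 genes, Fras1 being without an entry. Those of Frem2 and Frem1 are shown because these 2 partners rose by the largest folds. Each window runs from 250 bases before to 50 bases after an annotated start, and capitals mark the letters CCAAT on either strand, the motif of the CCAAT box. The window of Frem2 is chr3:53657306-53657605 on the minus strand, and that of Frem1 is chr4:83052117-83052416 on the minus strand, 1 of 2 annotated starts of that gene, shown because it holds the motif, the other holding none.
Frem2: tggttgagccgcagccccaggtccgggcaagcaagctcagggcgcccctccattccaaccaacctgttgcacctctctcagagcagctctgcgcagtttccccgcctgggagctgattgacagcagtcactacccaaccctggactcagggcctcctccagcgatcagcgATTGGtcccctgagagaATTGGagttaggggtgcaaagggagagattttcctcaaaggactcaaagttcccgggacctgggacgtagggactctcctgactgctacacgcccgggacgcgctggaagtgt
Frem1: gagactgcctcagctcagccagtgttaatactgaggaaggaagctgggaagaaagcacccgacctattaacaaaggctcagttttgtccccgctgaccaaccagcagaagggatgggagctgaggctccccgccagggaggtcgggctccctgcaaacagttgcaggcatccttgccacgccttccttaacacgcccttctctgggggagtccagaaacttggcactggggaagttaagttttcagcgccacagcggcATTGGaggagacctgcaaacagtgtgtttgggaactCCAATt
These windows each held CCAAT 2 times, in Frem2 before and in Frem1 after the annotated start, and 37.4% of 32851 promoter windows held it at least 1 time. The GC box GGGCGG, searched on both strands and held by 35.7% of windows, was found 4 times in 1 of the 2 Npnt windows and 2 times in 1 of the 3 Grip1 windows, and in no window of Frem1, Frem2 or Itga8. TATAAA, held by 13.6% of windows, was found in 1 Grip1 window. These matches describe letters only.

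The genes whose pattern over the 9 libraries was most like each of the 6 were taken from 12629 protein-coding genes. The libraries carry the genotype groups and the length trend for every gene, and the correlations are given as a description. For Fras1 they were Fat4, Vps13b and Fam117b (Pearson's r of 0.994, 0.993 and 0.993 on log2 CPM). They have 17165, 21273 and 7290 exon bases, against 17709 in Fras1. For Frem2 they were the nidogen gene Nid2, Cnst and Igf2r (0.988, 0.985 and 0.983), and for Frem1 Cyfip2, Ptprm and Scarb2 (0.986, 0.983 and 0.982). Itga8 was closest to Tle4, Eprs and Tox4 (0.983, 0.982 and 0.981), Npnt to Cfap43, Clstn1 and Cdc42bpg (0.992, 0.988 and 0.973) and Grip1 to Cyb561d1, Atp6v1b2 and Snapc4 (0.950, 0.936 and 0.917). In the same order, exon bases were 5174, 8859 and 9308 for the genes closest to Frem2 (13255 in Frem2). They were 7103, 8828 and 6285 for Frem1 (13978) and 5702, 18102 and 6950 for Itga8 (7368). For Npnt (5026) they were 7059, 4662 and 6099, and for Grip1 (8064) 5086, 5305 and 6622. Once group means were taken out, the correlation of Nid2 with Frem2 was 0.949 and that of Fat4 with Fras1 0.991.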

How the data were processed

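The deposited table holds unnormalised counts for Ensembl genes. The submitters' processing notes name the tools HTSeq 0.6.1, STAR 2.6.1 and DESeq2 1.6.3 and the mouse build GRCm38, without saying what each did. Neither annotation release nor strand setting was found, so reads of antisense genes cannot be told apart. Per the labels' protocols, tissue was kept in RNAlater and total RNA extracted by column. Counts summed to 25995340 to 35306935 per library, and 0 columns lacked a sample. Groups follow the genotype in the labels. Each library is 1 replicate, since no pair within a group agreed within sampling noise (lowest chi-square per degree of freedom 15.7).

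Counts were tested in edgeR 4.0.16 (R 4.3.3) with TMM, the default count filter, a robust quasi-likelihood fit on genotype and Benjamini-Hochberg adjustment over 15825 genes, and checked on simulated data. Symbols and exon lengths came from GENCODE M21 (34490 of 35275 identifiers). Ratios used a prior count of 2 and an exact permutation test. The length trend was a smooth fit on exon length in each library (mgcv 1.9.3). Alternatives were other scalings and filters, DESeq2 1.42.0, limma 3.58.1 (voom), GC content, covariates, a replicate block and left-out libraries. In the replicate block only mutants 1 to 3 bear on genotype. The 6 genes and the lists were chosen with earlier results of these data known. Named genes were the 6, up to 4 per list with the lowest p and the 3 most alike per gene (mean of at least 1 CPM). Others were named outside this rule and chosen after their values were seen. They are Egfl6, Frem3, Itgb1, Krt5, Krt15, Rgs5, Kcnj8, Pdgfrb, Acta2, Myh11, Tagln, the antisense genes and the markers at 0. 1 gene that the rule names is not reported here.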

Additional observations from a re-analysis of the deposited data

Results flagged for a closer look

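Mutant 4 stood apart from the other 5 mutant libraries in 5 of 15 sets of mutant values examined, where about 1 in 20 would be expected by chance in unrelated sets. These sets share libraries and genes, so they are not independent. Fras1 was 268 CPM in mutant 4 against 194 in the next library, and Frem2 was 90.3 against 71.7 CPM. Relative to the summed epithelial markers, on the log2 scale, mutant 4 stood at -5.03 for Fras1 (next -5.52), at -7.95 for Frem1 (next -8.53) and at -6.60 for Frem2 (next -7.11). Mutant 4 was also the library with the highest gene length measure, 0.52, and its part in these values was not tested. Without mutant 4 the log2 fold changes were 0.32 for Fras1, 0.57 for Frem1 and 0.67 for Frem2, and all 3 kept their calls (edgeR adjusted p = 0.0141, 0.00474 and 0.000441).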

How the results depend on the processing

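Of the 6 genes, 4 were called in the main test and under other scalings and filters, DESeq2 and limma-voom. With exon length, or exon length and GC content, removed 3 were called, likewise with the epithelial marker covariate, 2 with the ribosomal RNA covariate and 2 without wildtype 1 and mutant 4, both added after the data had been seen. Over libraries left out in turn 1 to 4 were called. Calls over all genes, 3034 in the main test, were 4694 with limma-voom, 1845 with the epithelial covariate, 1626 with the ribosomal RNA covariate, 1036 without wildtype 1 and mutant 4, and 538 to 3265 over libraries left out. Listed genes called, 22 in the main test, were 13 to 25 over libraries left out. Replicate numbers did not pair the samples: deviations of same-numbered libraries correlated at 0.0962, 0.0268 and -0.107, and not every library correlated best with its own number. With a replicate block 1485 genes and the same count of 4 among the 6 were called. Mutants 4 to 6 share their number with no wildtype library, so in this fit they do not bear on genotype. It compares only mutants 1 to 3 with wildtype 1 to 3, by number, and is no check on all 9 libraries.

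With the length trend removed, the log2 ratio differences passed the test for Frem2 to Fras1 (0.36), Frem1 to Fras1 (0.28) and Npnt to Itga8 (-0.31). Over libraries left out they were 0.27 to 0.36 for Frem2 to Fras1 and 0.18 to 0.29 for Frem1 to Fras1, both past the threshold without mutant 6 only. Per length of the longest transcript Npnt stood at 228 and 259.6 TPM. Relative to epithelial markers, removal of the length trend gave 0.040 for Fras1, 0.32 for Frem1, 0.40 for Frem2 and -0.14 for Grip1, and Grip1 ran from -0.078 to 0.27 over libraries left out. The log2 fold change of Grip1 turned to -0.13 with limma-voom, -0.14 with the replicate block, -0.047 without exon length and -0.068 without length and GC, and ran from -0.053 to 0.28 over libraries left out. Among markers not called, Mlana turned to 0.0907 with exon length removed and 0.088 with length and GC removed, Lor to -0.13 with the block, and over libraries left out Lor ran from -0.29 to 0.96 and Ttn from -1.51 to 0.56. Where calls changed, the cause was not tested. Counts of 84 to 170 per library limit what can be seen of Grip1.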
